A study of Mus musculus with 8 samples.

Results

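Circadian clock genes were followed on single arrays of the mouse left ventricle in 4 reproductive states. The list held 10 genes, chosen by symbol: the activators Arntl (also named Bmal1), Npas2 and Clock, the repressors Per1, Per2, Per3, Nr1d1 and Ciart, and the output factors Dbp and Tef. Of these, 9 had a probe set annotated to a single gene symbol, out of 22180 genes measured that way. For Per2 the 1 annotated probe set also carries another gene's symbol, so no value of it is given. All 9 genes passed the filter on low values that left 13872 genes for testing. The animals were female C57BL/6 mice of 3 to 4 months, bought from a vendor, with no transgene and no drug treatment named in the labels. The 4 groups, each of 2 arrays, were non-pregnant mice in diestrus (replicates 2 and 3), mice on day 12 of pregnancy (replicates 2 and 3), mice on day 19 (replicates 1 and 2, which the protocol text gives as 18/19 days) and mice at 1.5 days after birth (replicates 2 and 4). The series names diestrus as the reference. Nothing in the labels ties an array to a separate animal, so the spread behind each p-value is that between these samples and may be technical. The hour at which the animals were killed is not given in the sources used here, so time of day and reproductive state cannot be told apart.

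The mammalian clock is a feedback loop that runs in nearly every cell, heart muscle included. The proteins of Arntl pair with those of Clock or its relative Npas2, bind E-box sequences and switch on the Per and Cry genes, Nr1d1, Ciart and Dbp. The Per, Cry and Ciart proteins then block the activators, while the nuclear receptor encoded by Nr1d1 (also named Rev-erb alpha) silences Arntl and Npas2. In mouse tissues the RNA of Arntl and Npas2 is therefore highest near the end of the night. That of Nr1d1 and Dbp is highest in the day. A single sample can thus be placed roughly by which arm is high. Clock RNA itself varies little over the day in most tissues.

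The letters of such binding elements were searched in front of these genes, and a match does not show that a site is bound. Promoter windows were present for 9 of the 10 listed genes (RefSeq, GRCm38.p6), and the 250 bases before each annotated start were searched on both strands for CACGTG (E-box), CACGTT (a variant E-box), TTATGTAA and TTACGTAA (D-boxes, bound by Dbp and Tef), TAGGTCA (site bound by Nr1d1 and ROR receptors) and TGACGTCA (cyclic AMP element). Matches were found for 5 genes, and none overlapped another. The 4 windows below are shown because each holds E-boxes or D-boxes, which are in capitals. They lie at chr3:95882229-95882478 on the minus strand for Ciart, chr11:69098699-69098948 on the plus strand for Per1, chr15:81802423-81802672 on the plus strand for Tef and chr4:151044666-151044915 on the minus strand for Per3.
Ciart: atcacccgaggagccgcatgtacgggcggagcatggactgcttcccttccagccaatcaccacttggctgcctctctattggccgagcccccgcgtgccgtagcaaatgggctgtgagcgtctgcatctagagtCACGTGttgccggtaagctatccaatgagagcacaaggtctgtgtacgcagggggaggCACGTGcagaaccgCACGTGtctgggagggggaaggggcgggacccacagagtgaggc
Per1: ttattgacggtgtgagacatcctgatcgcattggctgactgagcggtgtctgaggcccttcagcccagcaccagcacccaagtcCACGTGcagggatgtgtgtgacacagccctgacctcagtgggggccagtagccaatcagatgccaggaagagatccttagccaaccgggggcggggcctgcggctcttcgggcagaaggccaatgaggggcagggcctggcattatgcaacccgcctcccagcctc
Tef: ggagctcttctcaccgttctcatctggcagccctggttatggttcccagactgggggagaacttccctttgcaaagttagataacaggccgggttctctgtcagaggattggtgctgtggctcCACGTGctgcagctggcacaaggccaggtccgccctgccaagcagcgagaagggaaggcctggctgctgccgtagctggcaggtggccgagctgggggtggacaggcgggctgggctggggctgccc
Per3: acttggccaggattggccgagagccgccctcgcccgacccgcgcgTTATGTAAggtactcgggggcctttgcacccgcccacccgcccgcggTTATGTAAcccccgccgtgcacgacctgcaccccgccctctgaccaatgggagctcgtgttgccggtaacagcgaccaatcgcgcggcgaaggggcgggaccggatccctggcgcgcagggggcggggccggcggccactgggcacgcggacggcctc

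Ciart held 3 E-boxes, starting 116, 58 and 44 bases before its start, and Per1 and Tef held 1 each in these windows, at 166 and 127 bases. Per3 held the D-box TTATGTAA at 205 and at 158 bases. The window before a second start of Tef, not shown, held an E-box at 138 bases, and that before a second start of Per1 held no match. In all, 14 windows of the 9 genes were searched. The fifth gene, Nr1d1, held a variant E-box at 28 bases. Over 32807 promoter windows of the same length, 6.02% held at least 1 E-box and 0.061% at least 3, while 3.85% held the variant E-box, 0.817% the D-box TTATGTAA and 0.0183% at least 2 copies of it. The letters searched were not found in the windows of Arntl, Npas2, Clock and Dbp.

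The arrays as a whole were alike. Array pairs correlated at 0.980 to 0.992, except those with day 19 replicate 2, which correlated at 0.969 to 0.977. Cardiomyocyte markers (8 of 8 measured, among them Myh6 and Tnnt2) averaged 11.92 to 12.12 on the log2 scale. Atrial markers (8 of 8 measured) averaged 1.97 above their 8-array mean on day 19 replicate 1, 0.67 above it on day 12 replicate 3 and 0.30 above it on diestrus replicate 3, and -0.64 to -0.53 on the other 5 arrays, where 3 of the 8 lay under the filter level of 5.19. Interferon response genes (8 measured) averaged 1.88 and macrophage markers (9 measured) 1.17 above their 8-array means on day 19 replicate 2. Of the interferon response genes Ifit3 was not raised there (5.86, against 6.15 on day 19 replicate 1). In bulk tissue, fewer cells of a type and less RNA per cell cannot be told apart.

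Among the activators, Arntl, without which the clock does not run, gave 8.39 and 5.82 in diestrus (replicates 2 and 3), 7.38 and 7.09 at day 12, 7.91 and 7.36 at day 19 and 6.36 and 6.67 post-partum, all as log2 levels. The highest and the lowest of the 8 arrays were thus both diestrus arrays, 2.57 log2 units or 5.94-fold apart. By state the order of means was day 19 (7.64 ± 0.39, SD, n = 2), day 12 (7.24 ± 0.21), diestrus (7.10 ± 1.82) and post-partum (6.51 ± 0.22). Day 19 and day 12 overlapped, and post-partum lay below both.

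Npas2, which can stand in for Clock as the partner of Arntl, gave 8.16 and 6.20 in diestrus, 6.57 and 6.55 at day 12, 7.46 and 7.47 at day 19 and 6.64 and 6.49 post-partum. Again the 2 diestrus arrays were the extremes, and between them both day 19 arrays stood above all day 12 and post-partum arrays. Clock gave 10.33 and 9.80 in diestrus, 10.34 and 10.24 at day 12, 10.36 and 10.08 at day 19 and 9.14 and 9.97 post-partum. Its spread was narrower (1.22 log2 units), and its lowest array was post-partum replicate 2.

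**Figure D1:**
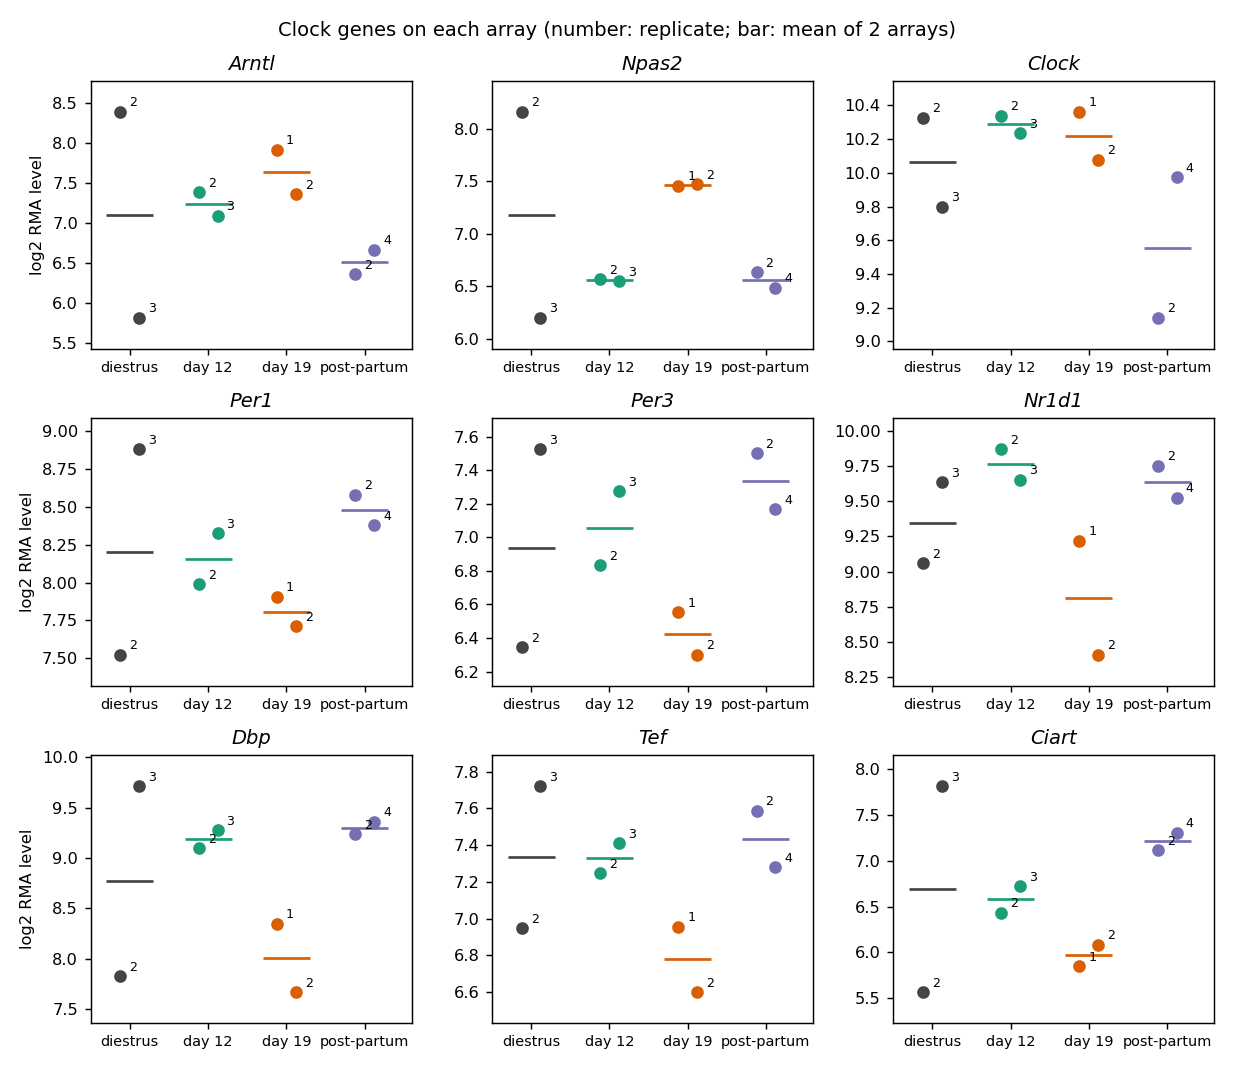
Log2 RMA level (vertical axis) of the 9 clock genes on each of the 8 arrays, by reproductive state; points are arrays labelled with their replicate number and the bar is the mean of the 2. In diestrus the 2 points lie apart, by 2.57 log2 units for Arntl and 2.25 for Ciart, while in the other states the points of these genes lie closer; Clock lies farthest apart post-partum and Nr1d1 at day 19.

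The Period genes encode the repressors that close the loop. Per1 gave 7.52 and 8.88 in diestrus, 7.99 and 8.32 at day 12, 7.91 and 7.71 at day 19 and 8.58 and 8.38 post-partum. Per3 gave 6.35 and 7.53 in diestrus, 6.83 and 7.28 at day 12, 6.55 and 6.30 at day 19 and 7.50 and 7.17 post-partum. For both genes the order was the reverse of that of Arntl in diestrus, with replicate 3 the highest of the 8 arrays, and both day 19 arrays were below every day 12 and post-partum array.

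Ciart, also named Chrono, encodes a repressor that binds Arntl, and its window shown above holds 3 E-boxes. It gave 5.57 and 7.82 in diestrus, 6.43 and 6.73 at day 12, 5.85 and 6.08 at day 19 and 7.12 and 7.31 post-partum. Diestrus held both ends of its range (2.25 log2 units, 4.76-fold), and the other 3 states did not overlap each other, with day 19 lowest and post-partum highest. Nr1d1, the repressor of Arntl, gave 9.06 and 9.63 in diestrus, 9.87 and 9.65 at day 12, 9.22 and 8.41 at day 19 and 9.75 and 9.52 post-partum. Its highest array was day 12 replicate 2 and its lowest day 19 replicate 2, and day 12 and post-partum overlapped.

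The output factors are PAR bZIP proteins that bind D-boxes and carry the rhythm to further genes. Dbp gave 7.82 and 9.71 in diestrus, 9.10 and 9.28 at day 12, 8.35 and 7.67 at day 19 and 9.24 and 9.36 post-partum. Tef gave 6.95 and 7.72 in diestrus, 7.25 and 7.41 at day 12, 6.95 and 6.60 at day 19 and 7.59 and 7.28 post-partum. Both had their highest array in diestrus replicate 3 and their lowest in day 19 replicate 2, with day 12 and post-partum overlapping. A second, dimmer probe set of Tef gave 5.11 and 5.46 in diestrus and 5.47 and 5.34 at day 12. It gave 5.51 and 5.40 at day 19 and 6.07 and 5.26 post-partum. On that probe set day 19 was not the lowest state, and it overlapped post-partum. By state means, with the brighter probe set for Tef, day 19 was the lowest for all 6 repressor and output genes. Post-partum was the highest for 5 of them, Nr1d1 being highest at day 12.

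The diestrus pair was split by the clock genes. All 3 activators were higher on replicate 2 and all 6 repressor and output genes on replicate 3. Between these 2 arrays 6 of the 9 genes differed by more than 1 log2 unit, where 0.649% of the 13872 genes tested did. Ranked by size among all tested genes, Arntl was 7th, Ciart (-2.25, replicate 2 minus 3) was 9th, Npas2 (1.96) was 11th and Dbp (-1.89) was 12th. Per1 (-1.36) was 36th and Per3 (-1.18) was 54th, followed by Tef (-0.77), Nr1d1 (-0.57) and Clock (0.53). The median size of the difference was 1.36 for the 9 genes and 0.13 for all genes tested.

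In the other states 0 of the 9 genes differed by more than 1 log2 unit between the 2 arrays, where 0.49% of tested genes did so at day 12, 4.7% at day 19 and 1.05% post-partum. The median size over the clock genes was 0.22 at day 12, 0.28 at day 19 and 0.23 post-partum, against 0.12, 0.24 and 0.19 for all tested genes. The largest single difference there was that of Clock post-partum (-0.83, replicate 2 minus 4), larger than that of 97.8% of tested genes. By direction, most genes at day 12 lay as in diestrus. All 3 activators were higher on replicate 2 and 5 of the repressor and output genes on replicate 3. Nr1d1 went the other way (0.22, replicate 2 minus 3), and Npas2 differed by only 0.017. At day 19 the lower-numbered replicate was higher for 2 activators and lower for 1 of the others. Post-partum it was higher for 1 activator and lower for 2 of the others. The atrial gene Myl7 was 8.24 on diestrus replicate 3 and 5.12 on replicate 2. It was 4.69 and 10.04 at day 12, 11.76 and 4.56 at day 19 and 4.63 and 4.81 post-partum. The atrial markers Myl4, Sln, Bmp10, Dkk3 and Gja5 were also higher on diestrus replicate 3. Nppa (11.03, against 11.92 on replicate 2) and Kcnj3 (9.41 against 9.43) were not. The part of these genes in the clock values was not tested. Cardiomyocyte markers averaged 12.11 and 12.07 on the diestrus arrays, and interferon response genes 6.59 and 6.64.

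**Figure D2:**
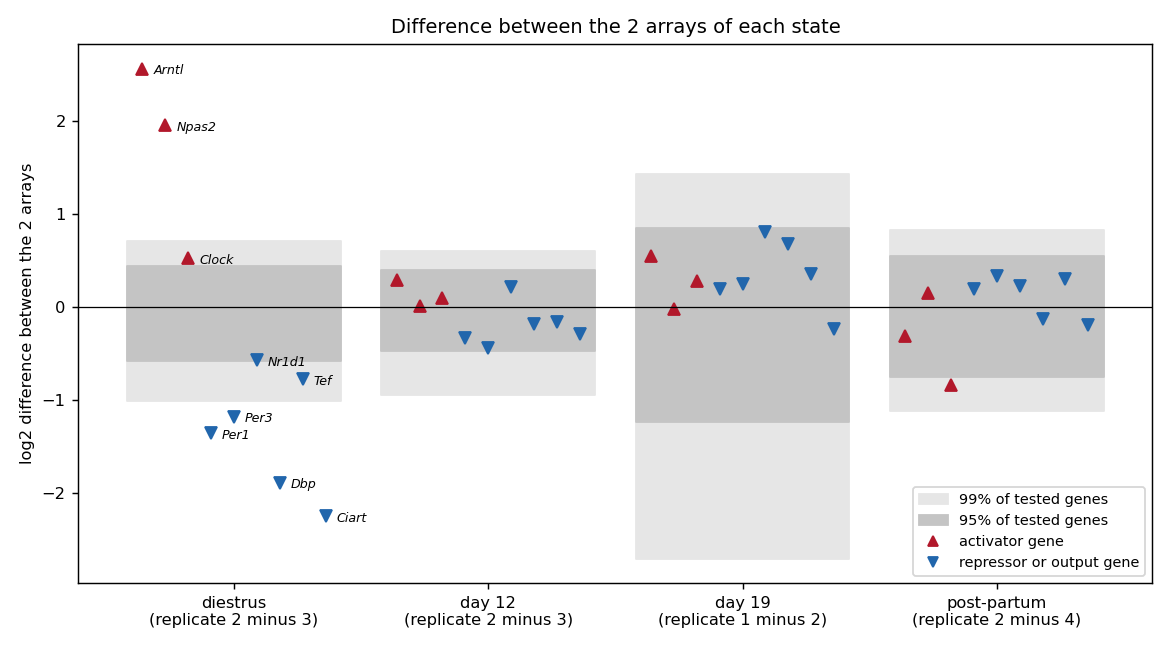
Log2 difference between the 2 arrays of each state (vertical axis; the subtraction is named under each state) for the 3 activator genes (red) and the 6 repressor and output genes (blue), over the central 95% and 99% of the 13872 genes tested (grey). In diestrus 6 clock genes lie more than 1 log2 unit from 0, activators above and the others below, and in the other states none does.

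A clock index summarised each array as the mean of the activators minus the mean of the repressor and output genes, each gene taken relative to its mean over the 8 arrays. It is a description of chosen genes and carries no test. The index was 1.57 on diestrus replicate 2, 0.93 and 1.00 on the day 19 arrays, 0.0088 and -0.33 on the day 12 arrays, -1.09 and -0.64 on the post-partum arrays and -1.45 on diestrus replicate 3. The arrays therefore ran from activator-high to repressor-high in the order diestrus replicate 2, day 19, day 12, post-partum, diestrus replicate 3, and 3 of the 4 states kept their 2 arrays side by side.

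On 3 arrays, diestrus replicate 2 and both of day 19, all 3 activators stood above their own mean and 0 of the 6 repressor and output genes did. On another 3, diestrus replicate 3 and both post-partum arrays, 0 of the 3 activators and all 6 of the others stood above it. Day 12 lay between: replicate 2 had 2 activators and 3 of the others above their mean, and replicate 3 had 1 and 6. The mean index was 0.96 ± 0.048 (SD, n = 2) at day 19, -0.16 ± 0.24 at day 12, -0.86 ± 0.32 post-partum and 0.060 ± 2.14 in diestrus, whose mean describes neither of its arrays. The 2 day 19 arrays differed in atrial markers (1.97 and -0.53 from the 8-array mean) and in interferon response genes (-0.27 and 1.88), whose part in the index was not tested.

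**Figure D3:**
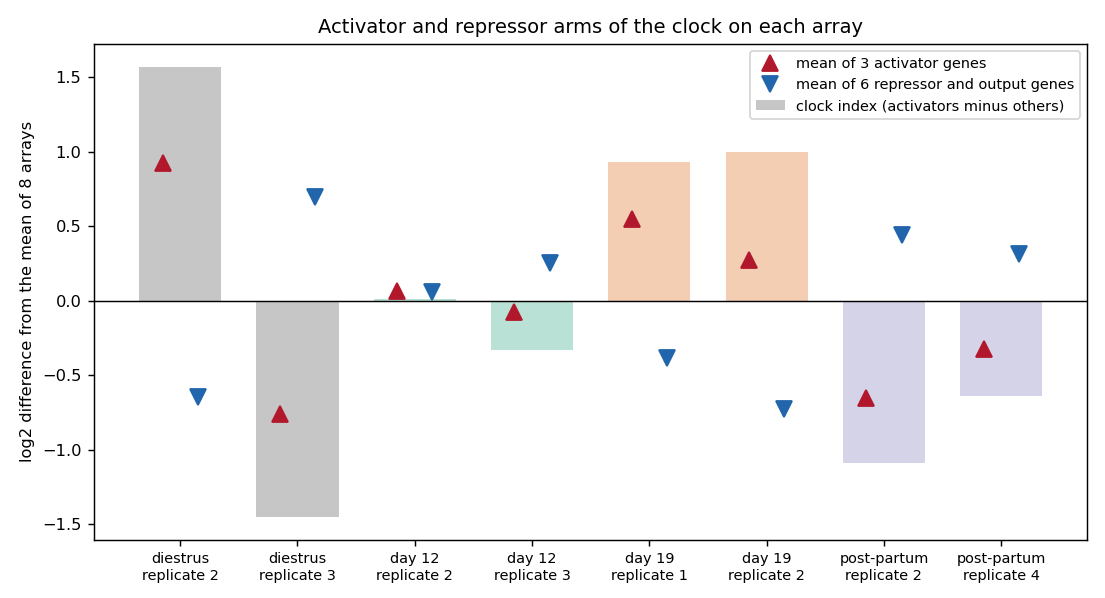
Log2 difference from the 8-array mean (vertical axis) of the 3 activator genes (red triangles, their mean), the 6 repressor and output genes (blue triangles, their mean) and the clock index, activators minus the others (bars from 0), on each array. The 2 diestrus bars point in opposite directions, at 1.57 and -1.45, the day 19 bars are both positive and the post-partum bars both negative.

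The passage from day 19 to post-partum showed the widest separation of the clock genes. All 9 were without overlap (33.3% of all tested genes were): the 6 repressor and output genes were higher on both post-partum arrays than on both day 19 arrays (19% of tested genes were), and the 3 activators were lower on both (14.3% were). Dbp was 1.29 ± 0.53 log2 units higher (SE, n = 2 per group, 2.44-fold), Ciart 1.25 ± 0.60, Per3 0.91 ± 0.36 and Nr1d1 0.82 ± 0.29, followed by Per1 (0.67) and Tef (0.66). Arntl was -1.12 ± 0.69, Npas2 -0.90 ± 0.51 and Clock -0.66 ± 0.29. The second, dimmer probe set of Tef did overlap (5.51 and 5.40 at day 19, 6.07 and 5.26 post-partum). The median was -0.90 for the activators and 0.87 for the others, against 0.013 over all tested genes. Other lists moved between the same arrays: immediate-early genes (8 measured) averaged 0.29 and 0.78 from their 8-array mean at day 19 and 0.042 and -0.14 post-partum, and fibroblast markers (7 measured) 0.16 and -0.57 at day 19 and 0.25 and 0.29 post-partum. Their part in the clock values was not tested.

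None of these differences passed the threshold: 0 of the 9 genes had an adjusted p under 0.05 in limma (0.589 to 0.611), as did 0% of all tested genes, while 4 had an unadjusted p under 0.05 (Per3, Nr1d1, Dbp and Tef), where 8.25% of tested genes did. The 4 states shared 1 estimate of the spread, and the diestrus pair supplied most of it for 7 of the 9 genes. It gave 99.4% of the within-state variation of Npas2, 96.6% of that of Ciart, 93.2% of that of Arntl, 90.7% of that of Per1, 87.6% of that of Dbp, 79.0% of that of Per3 and 70.8% of that of Tef, but 30.3% of that of Nr1d1 and 26.1% of that of Clock, against a median of 8.41% over all tested genes. With both diestrus arrays left out, a fit chosen after the data were seen, the standard error of Arntl went from 0.69 to 0.23 and that of Ciart from 0.60 to 0.18. An unadjusted p under 0.05 was then found for 8 of the 9 genes, where 5.98% of tested genes had one, and the adjusted p was 0.712 for each. Without day 19 replicate 1, which leaves replicate 2 alone for that state, 1 of the 9 genes passed, Nr1d1 at 1.23 (adjusted p = 0.0320), and so did 6.29% of all tested genes.

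Between day 12 and day 19, 7 of the 9 clock genes did not overlap, where 39.5% of tested genes did not. All 6 repressor and output genes were lower on both day 19 arrays than on both day 12 arrays (23.2% of tested genes were), led by Dbp (-1.18 ± 0.53 log2, SE, n = 2 per group) and Nr1d1 (-0.95 ± 0.29), with Per3 at -0.63, Ciart at -0.61, Tef at -0.55 and Per1 at -0.35. The second, dimmer probe set of Tef overlapped (5.47 and 5.34 at day 12, 5.51 and 5.40 at day 19). Among activators Npas2 was 0.91 ± 0.51 higher without overlap (16.3% of tested genes were), whereas Arntl (0.40) and Clock (-0.068) overlapped. In limma 0 of 9 genes passed (adjusted p = 0.675 to 0.946; 0% of all tested genes passed), and 1, Nr1d1, had an unadjusted p under 0.05, where 6.47% of tested genes did. With both diestrus arrays left out that count was 6 of 9, where 4.75% of tested genes had such a p, and the adjusted p was 0.777 to 0.954. Without day 19 replicate 1 Nr1d1 passed, at -1.35 (adjusted p = 0.0190), as did 9.46% of all tested genes, so that 1 of 9 is near the background.

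Between day 12 and post-partum 4 of the 9 genes did not overlap, where 46.5% of tested genes did not. Ciart (0.63 ± 0.60) and Per1 (0.32 ± 0.38) were higher post-partum without overlap (20.5% of tested genes were), and Clock (-0.73 ± 0.29) and Arntl (-0.72 ± 0.69) were lower without overlap (26% were). The other 5 genes overlapped and ranged from -0.12 (Nr1d1) to 0.28 (Per3). In limma 0 of 9 genes passed (adjusted p = 0.615 to 0.998; 0% of all tested genes passed), and Clock had an unadjusted p under 0.05, where 8.12% of tested genes did. With both diestrus arrays left out 3 genes had one, Ciart, Arntl and Clock, where 5.88% of tested genes did.

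Against diestrus, 1 of the 9 clock genes was without overlap in 1 of the 3 comparisons. At day 19 all 3 activators had a higher mean and all 6 others a lower mean than diestrus, with medians of 0.28 and -0.55, yet all 9 overlapped (36.8% of tested genes did not overlap there, 16.4% being higher and 20.4% lower). The values went from 0.54 ± 0.69 for Arntl to -0.76 ± 0.53 for Dbp (SE, n = 2 per group). Post-partum the means lay the other way, activators at a median of -0.59 and the others at 0.34, and again all 9 overlapped (42.8% of tested genes did not, 21.1% being higher and 21.7% lower). At day 12 the medians were 0.14 and 0.057, and Nr1d1 alone was higher on both arrays (0.41 ± 0.29), as were 21.7% of tested genes, while 0 clock genes and 15.6% of tested genes were lower without overlap (37.3% in either direction). In each of the 3 comparisons 0 of 9 genes passed in limma, as did 0% of all tested genes, and 0 of 9 had an unadjusted p under 0.05, where 2.31% of tested genes did at day 12, 7.29% at day 19 and 6.62% post-partum. The adjusted p was 0.657 to 0.878 at day 19, 0.737 to 0.941 post-partum and 1.00 for each gene at day 12.

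Which diestrus array was used decided the sign. Without diestrus replicate 3, Arntl was -1.15 at day 12, -0.75 at day 19 and -1.87 post-partum relative to diestrus, and without replicate 2 it was 1.42, 1.82 and 0.70. For Ciart the same choices gave 1.01, 0.40 and 1.65 without replicate 3 and -1.24, -1.85 and -0.60 without replicate 2. Over the arrays left out in turn, 8 of the 9 genes changed sign at day 12 and 7 of 9 at day 19 and post-partum. Between day 19 and post-partum 0 of the 9 did. That follows from their lack of overlap, since leaving out 1 array cannot then change a sign, and it adds no support. The F test over the 3 comparisons with diestrus together called 0 of 9 genes (adjusted p = 0.726 to 0.787 in limma; 0% of all tested genes were called), and Nr1d1 had an unadjusted p of 0.0479, where 5.81% of tested genes were under 0.05.

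**Figure D4:**
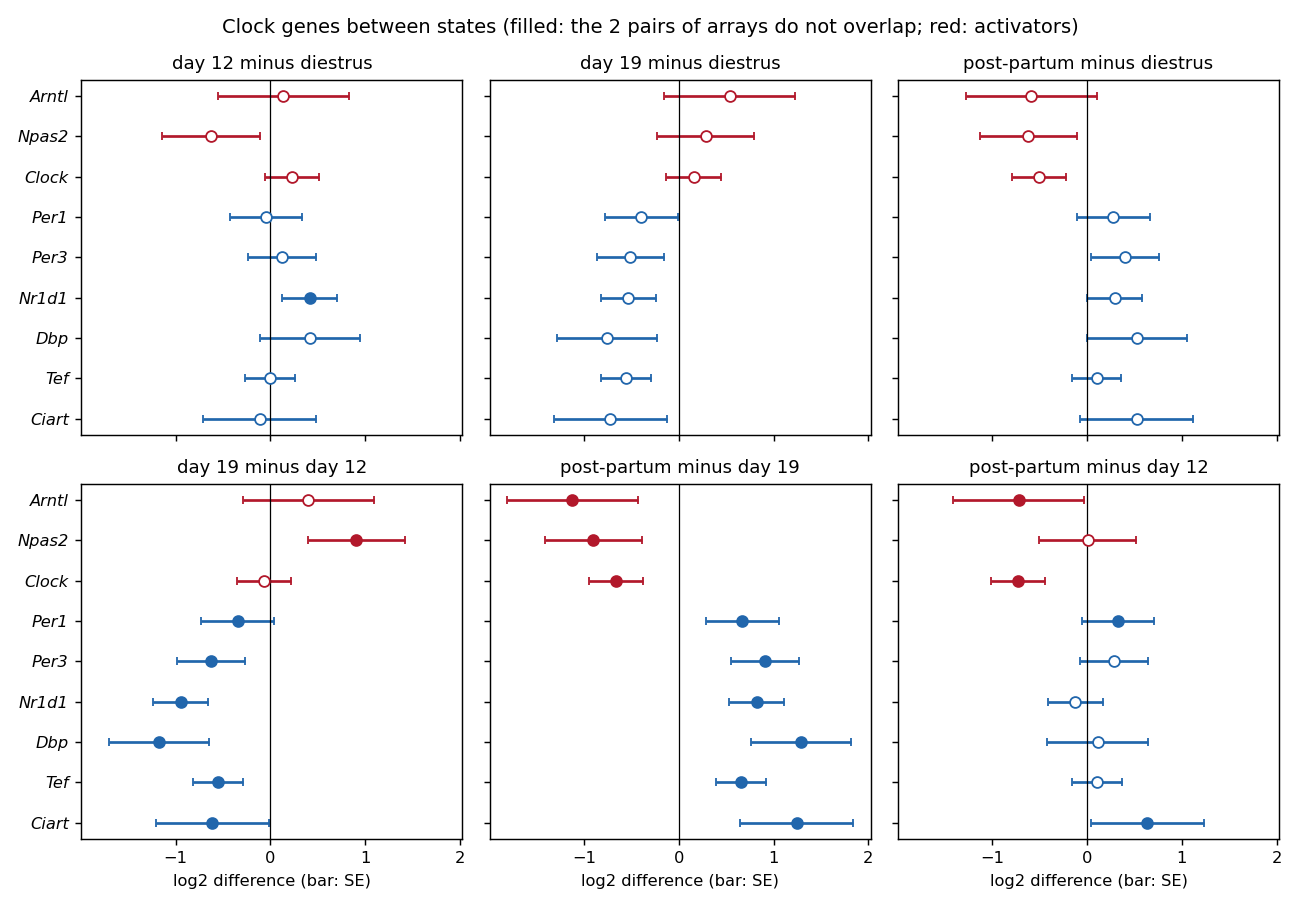
Log2 difference (horizontal axis, bar: SE from limma, n = 2 per group) of the 9 clock genes in the 6 comparisons of states; red marks activators, blue the repressor and output genes, and a filled point means that the 2 pairs of arrays do not overlap. All 9 points are filled for post-partum minus day 19, with activators left of 0 and the others right of it, and 1 point is filled over the 3 comparisons with diestrus.

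Other components of the loop were read from a list of 22 genes, of which 19 were measured and 18 tested. Between the diestrus arrays several lay on the side of the repressors: Bhlhe41 (Dec2, a repressor that competes for E-boxes) was -1.06, Nr1d2 (the paralogue of Nr1d1) -0.79, Hlf (the third PAR bZIP factor) -0.79, Cry2 (a cryptochrome, partner of the Per proteins) -0.70 and the deubiquitinase gene Usp2 -0.50, replicate 2 minus 3. Nfil3, which opposes Dbp at D-boxes, lay on the side of Arntl (0.77). Arntl2, the paralogue of Arntl, did not: it lay on the side of the repressors (-0.47). Cry1 (0.061), Rora (0.017) and the kinase gene Csnk1e (-0.12) were near 0. Of the 18 genes 1 differed by more than 1 log2 unit, where 0.649% of all tested genes did. The median size of difference over the 18 was 0.15, against 0.13 over all tested genes.

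Among these genes Hlf was at 7.25 and 8.04 in diestrus, 7.24 and 7.72 at day 12, 7.04 and 6.48 at day 19 and 7.89 and 7.51 post-partum. Both day 19 arrays were the lowest, and diestrus replicate 3 the highest. Nfil3 was at 7.45 and 6.68 in diestrus, 7.04 and 6.86 at day 12, 7.39 and 7.55 at day 19 and 7.31 and 7.11 post-partum, with day 19 replicate 2 highest and diestrus replicate 3 lowest. Bhlhe41 was at 6.75 and 7.81 in diestrus, 7.29 and 7.43 at day 12, 7.20 and 6.31 at day 19 and 7.91 and 7.42 post-partum.

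In the tests of that list 0 genes passed in either direction in each of the 6 comparisons (limma). At an unadjusted p under 0.05 the counts were 0 of 18 at day 12, 3 at day 19 and 2 post-partum against diestrus, where 2.31%, 7.29% and 6.62% of all tested genes had such a p. They were 2 in each of the remaining comparisons, where 6.47% (day 19 against day 12), 8.25% (post-partum against day 19) and 8.12% (post-partum against day 12) did. At day 19 these were Hlf (-0.88 ± 0.31, SE), Rora, an activator of Arntl (-0.48 ± 0.17), and Timeless (0.60 ± 0.20). Post-partum they were Usp2 (0.48 ± 0.19) and Nono (-0.34 ± 0.15), which encodes a partner of the Per proteins. The medians of the list were -0.035, -0.21 and -0.039 at day 12, day 19 and post-partum, against 0.017, -0.029 and -0.0037 over all tested genes. Without diestrus replicate 3 Hlf was -0.49 at day 19 and Usp2 0.73 post-partum, while without diestrus replicate 2 they were -1.28 and 0.23. Nono was -0.20 without post-partum replicate 2 and -0.48 without replicate 4, and without day 19 replicate 2 Rora was -0.24 and Timeless 0.31. Without day 19 replicate 1 both passed in limma, Rora at -0.72 (adjusted p = 0.0231) and Timeless at 0.90 (adjusted p = 0.0194), in a fit that called 8.89% of all tested genes.

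Cardiac genes reported to follow the clock were read from a second list of 20, of which 18 were measured and 17 tested. Between the diestrus arrays 0 of the 17 differed by more than 1 log2 unit, where 0.649% of all tested genes did, and their median size of difference was 0.32, against 0.13 over all tested genes. The largest were Tspan4 (-0.93), the cell cycle kinase gene Wee1 (-0.92), Tcap, which caps titin (-0.79), Coq10b, a coenzyme Q-binding protein (-0.72), and Rcan1, an inhibitor of calcineurin (0.69). The transcription factor Klf15 (0.19) and its target Kcnip2, a potassium channel subunit (0.12), were closer, as was the channel gene Kcnh2 (0.039).

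In limma 0 of these 17 genes passed in each of the 6 comparisons. Counts at an unadjusted p under 0.05 were 2, 4 and 2 against diestrus at day 12, day 19 and post-partum, with list medians of 0.018, -0.096 and 0.093, where 2.31%, 7.29% and 6.62% of all tested genes had such a p. In the remaining comparisons they were 3 for day 19 against day 12 (6.47% of tested genes), 4 for post-partum against day 19 (8.25%) and 3 for post-partum against day 12 (8.12%). Against diestrus the genes were Pdk4, a brake on glucose oxidation (0.90 ± 0.20 at day 12 and 0.77 ± 0.20 at day 19, SE), Ucp3 at day 12 (0.59), Kcnh2 (-0.47) and Wee1 (-0.85) at day 19, Rcan1 at day 19 (0.84) and post-partum (0.73), and Coq10b post-partum (0.62). Pdk4 did not order the arrays as the clock genes did: it was 10.65 and 10.44 in diestrus, 11.51 and 11.38 at day 12, 11.30 and 11.33 at day 19 and 10.23 and 10.80 post-partum. Both pregnant groups were above the other 2 groups.

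The size of several of those differences rested on the diestrus array used. Without diestrus replicate 2 Wee1 was -1.31, Coq10b 0.26 and Ucp3 0.36, and without replicate 3 they were -0.39, 0.98 and 0.82. Rcan1 was 0.49 at day 19 and 0.38 post-partum without diestrus replicate 3, and 1.19 and 1.08 without replicate 2. Kcnh2 was -0.33 without day 19 replicate 2, and without day 19 replicate 1 it passed in limma at -0.61 (adjusted p = 0.0392), in the fit that called 8.89% of all tested genes.

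**Figure D5:**
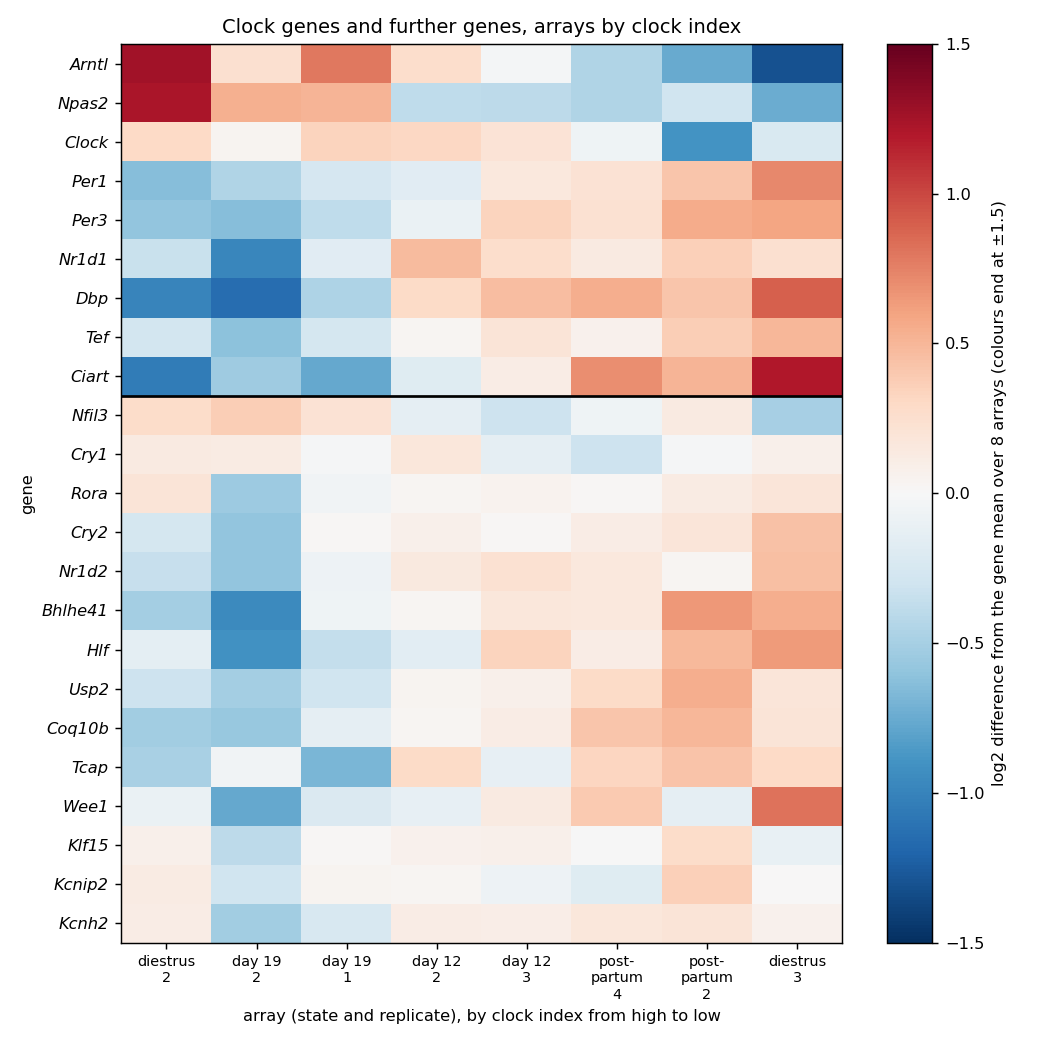
Log2 difference from each gene's mean over 8 arrays (colour; the scale ends at ±1.5) for the 9 clock genes (above the line) and further genes of both lists (below it), with arrays from left to right by falling clock index. Activators run from red to blue and the repressor and output genes from blue to red, with Nfil3 on the side of the activators and Bhlhe41, Hlf and Usp2 on the side of the repressors, while Klf15 and Kcnip2 show little of either.

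Genes whose pattern was most like the clock index were sought among 1981 tested genes with a standard deviation of at least 0.3 over the 8 arrays. They were picked for that likeness, so the coefficients describe them and are not tests. The most alike were Adam19, a membrane metalloprotease gene (Pearson r = 0.95, Spearman coefficient = 0.95), Tmem171 (0.95 and 0.98), Fam124b (0.89 and 0.88), Abra, which encodes an actin-binding protein (0.85 and 0.90), and Spon2, a secreted matrix protein (0.84 and 0.81). Adam19 gave 8.28 and 6.98 in diestrus, 7.45 and 7.29 at day 12, 7.71 and 7.68 at day 19 and 7.16 and 7.34 post-partum. Like Arntl, it had its highest and its lowest array in diestrus. The most opposite were Coq10b (-0.89 and -0.90), Usp2 (-0.89 and -0.90), Bhlhe41 (-0.87 and -0.93), the growth factor gene Igf2 (-0.87 and -0.88) and the RNA polymerase subunit gene Polr2l (-0.83 and -0.81). Of these 10 genes, Usp2 and Bhlhe41 stood in the list of loop components above and Coq10b in that of cardiac genes. Other genes of these lists that were among the 1981 were ranked from the highest r. Nfil3 (10th), Hlf (1976th), Nr1d2 (1974th), Cry2 (1973rd), Tcap (1972nd) and Wee1 (1961st) lay near an end. Tspan4 (1917th), Ucp3 (1803rd), Pdk4 (179th), Rcan1 (474th) and Timeless (657th) lay farther from the ends. List genes with a smaller standard deviation were not ranked. Without the 2 diestrus arrays, which lay farthest from the median of the index, r was 0.98 for Adam19, 0.92 for Tmem171, 0.78 for Fam124b, 0.98 for Abra and 0.74 for Spon2. It was -0.93 for Coq10b, -0.98 for Usp2, -0.84 for Bhlhe41, and -0.83 and -0.85 for Igf2 and Polr2l.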

How the data were processed

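RNA of 1 piece of left ventricle per sample was isolated and 100 ng was labelled for one-colour arrays, per the labels' protocols. The deposited values are log2 expression levels of probe sets, for which the authors used RMA; the submitters' processing notes name Affymetrix Expression Console as the tool. RMA equalises the arrays, so changes shared by most genes are removed. Tool versions and the genome build were not stated.

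Of 34365 probe sets, 23521 carried 1 gene symbol in the platform annotation, 1814 several and 9030 none listed. Entrez identifiers of 23328 matched RefSeq genes (GRCm38.p6), and 0 symbols changed. The probe set with the highest mean stood for a gene. A gene was tested if 1 group mean reached 5.19, the median of all values. A model with 1 mean per state was fitted to all genes and 8 arrays with limma 3.58.1 in R 4.3.3 (4 residual and 3.68 prior degrees of freedom). Tests were two-sided, with Benjamini-Hochberg adjustment over the 13872 genes and a threshold of 0.05. The model was first tested on simulated data with the same spread in all states. That setting does not cover genes whose spread lies mostly in the diestrus pair, as with most clock genes here. Precision is limited by 2 arrays per state: the median standard error of a difference was 0.17.

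The members and lists were chosen with earlier results of these data known, so their counts are no independent support. All 9 clock genes are named. From the lists of 22 and 20 genes, those of smallest p against diestrus are named (up to 6 and 4 per comparison), with a set of 8 always named, of which 7 were measured. Printing was limited to those with an unadjusted p under 0.05. That limit, and the genes named for their difference within diestrus, were chosen after seeing the values. Of the genes most like the index, 5 in each direction are named. Alternatives covered array weights, trended and robust variance, the filter, the groups fitted, probe set means, median centring, a replicate block, other forms of the index and each array left out.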

Additional observations from a re-analysis of the deposited data

How the results depend on the processing

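The 9 clock genes gave 0 calls in each of the 6 comparisons and in the F test, and this count stayed at 0 under array weights, trended and robust variance, no filter, a stricter filter, only the compared groups, probe set means and median centring. With each array left out in turn it ranged from 0 to 1 for day 19 against day 12 and for post-partum against day 19, the 1 being Nr1d1 without day 19 replicate 1, a fit in which the lone day 19 array is assumed to vary like the other groups and which called 9.46% and 6.29% of all tested genes. With both diestrus arrays left out, added after the data were seen, the count was 0 in the 3 comparisons it allows. In that fit and in the main fit 0 of the 13872 tested genes passed, so a count of 0 is not particular to the clock genes. For the other settings, leaving out single arrays aside, the share over all tested genes is not given here. Diestrus and day 12 share the replicate numbers 2 and 3; same-numbered arrays deviated from their group means with a correlation of 0.22 over genes, but 2 pairs that share only a number do not show pairing. The fit with the replicate block called 0 of the 9 genes.

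Signs turned with the arrays left out. Over these fits, day 12 against diestrus gave Arntl from -1.15 to 1.42, Npas2 from -1.60 to 0.36, Clock from -0.038 to 0.49, Per1 from -0.72 to 0.63, Per3 from -0.47 to 0.71, Dbp from -0.53 to 1.36, Tef from -0.39 to 0.38 and Ciart from -1.24 to 1.01. Day 19 against diestrus gave Arntl from -0.75 to 1.82, Npas2 from -0.70 to 1.26, Clock from -0.11 to 0.42, Per1 from -1.07 to 0.28, Per3 from -1.10 to 0.081, Dbp from -1.71 to 0.19 and Ciart from -1.85 to 0.40. Post-partum against diestrus gave Arntl from -1.87 to 0.70, Npas2 from -1.60 to 0.36, Per1 from -0.40 to 0.96, Per3 from -0.19 to 0.99, Dbp from -0.42 to 1.47, Tef from -0.29 to 0.49 and Ciart from -0.60 to 1.65. Each of these extremes came from leaving out a diestrus array. Clock at day 19 against day 12 went from -0.21 to 0.073, and post-partum against day 12 gave Npas2 from -0.070 to 0.080 and Tef from -0.049 to 0.26. With probe set means Tef at day 12 against diestrus was 0.058 in place of -0.0051, and with median centring Npas2 post-partum against day 12 was -0.0277 in place of 0.0048.

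The order of the arrays by index held in the 5 other forms tried, except that the 2 day 19 arrays changed places without Dbp and Tef. Values that moved by more than the spread of their pair were those of day 19 replicates 1 and 2 without Clock (1.04 and 1.11), of replicate 2 without Dbp and Tef (0.92), of replicates 1 and 2 with medians (0.84 and 0.87) and of day 12 replicate 2 with medians (0.30). All 9 genes passed the stricter filter of 5.74 in at least 1 state, which does not speak for their low arrays. Ciart was 5.57 on diestrus replicate 2 and 5.85 on day 19 replicate 1, and Arntl was 5.82 on diestrus replicate 3. Whether background limited these low values was not tested.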
